A study of Mus musculus with 32 samples.

Results

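Livers of young adult male (CM) and female (CF) mice born to dams on a control diet were compared at 8 weeks of age, after puberty, for genes on all chromosomes except X and Y. The comparison holds 8 of the 32 RNA-seq samples of the series, 4 CM and 4 CF, each from 1 animal, and 13769 of the 14195 genes tested at 8 weeks. CM and CF dams received standard chow before mating, through pregnancy and during lactation, and their offspring were weaned to chow, which they ate for 5 weeks until the liver was collected in the fed state. All animals of the series, obese-dam groups included, were Reg3g fl/+ or Reg3g fl/fl littermates from a floxed colony on a C57BL/6J background, sired by wild-type C57BL/6J males, and no Cre driver is named for them. The 8 further samples used for comparison at 8 weeks were males (MM) and females (MF) whose dams were obese on a Western-style diet over the same period and who ate chow for the same 5 weeks. The other 8 were CM and CF livers taken at 3 weeks, before weaning and puberty. Whether animals shared a litter is not given in the sources used here, so p-values measure the spread between these animals.

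Adult mouse liver is one of the most sexually divergent tissues. Its sex differences are known to be set after puberty largely by the pattern of pituitary growth hormone release, pulsatile in males and more continuous in females, which is read in the hepatocyte by the growth hormone receptor, the kinase JAK2 and the transcription factor STAT5b, together with BCL6, HNF6 and CUX2. The genes best known for this divergence encode cytochrome P450 enzymes, sulfotransferases and the major urinary proteins, which males secrete into urine as pheromone carriers.

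Expression is given as CPM (counts scaled to library size) after TMM scaling of library sizes, and the values of a group are listed in the order of replicates 1 to 4. A log2 fold change is positive where CM was higher. A gene was called at a Benjamini-Hochberg false discovery rate (FDR) below 0.05 in edgeR's quasi-likelihood test over all genes tested. Libraries held 26765492 to 32893589 counted reads in CM and 30121183 to 33540873 in CF. The sex labels fitted the sex-linked genes in all 8 libraries: Xist read 0.0663 to 0.156 CPM in CM and 607 to 790 CPM in CF, and Ddx3y read 48.4 to 52.1 CPM in CM and 0 in CF. Hepatocyte markers, 11 tested, summed to 119532 to 135590 CPM in CM and 136359 to 157009 CPM in CF, with 1 member (Hnf4a) called (9.09%, near the 10.2% of all genes). CM replicate 2 (CM2) stood apart from the other CM libraries on the first principal component, at 122 against 25.0 to 48.4, and had the smallest total and the lowest scaling factor (0.912).

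Male and female livers differed at 1402 genes, 10.2% of those tested. Of these, 552 were higher in CM (4.01%) and 850 were higher in CF (6.17%). The differences reached at least 2-fold at 242 genes higher in CM and 393 higher in CF, at least 16-fold at 31 and 42 genes, and at least 100-fold at 11 and 28 genes by the fitted values. The lowest CM value exceeded the highest CF value in 1461 genes (10.6%), and the reverse held in 1613 (11.7%). The median log2 fold change over all genes was -0.01. With total count scaling in place of TMM, 31.5% of the calls were higher in CM, against 39.4% with TMM. With only the 8 CM and CF libraries in the fit, 941 were higher in CM and 1045 higher in CF, so that 47.4% of the calls were higher in CM. Without CM2, 911 genes were called, 425 higher in CM and 486 higher in CF, which was the lowest count of the 8 fits that left out 1 library, and 895 of them were among the 1402.

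The genes with the largest differences toward females were nearly silent in males, and most of those named here encode enzymes of steroid and xenobiotic metabolism. Cyp2b9, a cytochrome P450, read 0, 0, 0.0331 and 0.0599 CPM in CM and 466, 666, 529.8 and 608 CPM in CF, which is 3 reads in all CM libraries against 73591 in CF (ratio 22800, 95% exact Poisson interval 7800 to 110000, FDR 8.07e-10). Its neighbour Cyp2b13 read 0.0312, 0, 0 and 0 CPM in CM and 122, 266, 158 and 165 CPM in CF (ratio 21500, 95% exact Poisson interval 3860 to 850000, FDR 1.89e-12). Every CF library stood more than 100 CPM above every CM library for both genes. Sult2a1, a hydroxysteroid sulfotransferase that acts on bile acids and dehydroepiandrosterone, read 0, 0.0819, 0 and 0 CPM in CM and 67.9, 220.3, 276 and 82.1 CPM in CF (ratio 9930, 95% exact Poisson interval 2750 to 82000, FDR 1.94e-07). Sult2a2, its close paralog, read 0.0312, 0.123, 0.0331 and 0 CPM in CM and 98.5, 227, 265 and 99.9 CPM in CF (log2 fold change -11.88 ± 0.77 SE, FDR 1.28e-07). Both were carried by all 4 CF libraries, with CF2 and CF3 above CF1 and CF4. Sult3a1, an amine sulfotransferase, read 0.0312, 0, 0 and 0 CPM in CM and 151, 67.6, 113 and 68.2 CPM in CF (ratio 11900, 95% exact Poisson interval 2130 to 470000, FDR 1.52e-08). A further 4 genes had no read in any CM library, so that only a lower bound, taken against 3 reads over the group, can be given: Cyp3a41b was at least 1440-fold higher in CF, Sult2a5 at least 194-fold, Sult3a2 at least 166-fold and Sult2a3 at least 47.1-fold. These counting intervals and bounds cover counting error only. The call of Sult2a3, which read 0, 0, 0 and 0 CPM in CM and 0.368, 1.74, 2.11 and 0.345 CPM in CF, was lost without CF2 (FDR 0.0536).

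Among P450s of subfamily 3A, Cyp3a41a read 0.0624, 0.041, 0.0994 and 0 CPM in CM and 422, 329, 537 and 354 CPM in CF (log2 fold change -12.89 ± 0.47 SE, FDR 7.3e-12). Cyp3a44 read 0.0624, 0.0819, 0.0331 and 0.0299 CPM in CM and 198, 129, 304 and 286 CPM in CF (log2 fold change -12.05 ± 0.46 SE, FDR 1.11e-11). Cyp3a16 read 0.281, 0.287, 0.298 and 0.18 CPM in CM and 143, 154, 370 and 278 CPM in CF (log2 fold change -9.81 ± 0.77 SE, FDR 1.49e-07). CM libraries stayed below 1 CPM for all of these. A1bg, a plasma glycoprotein of the immunoglobulin superfamily, read 0.0312, 0.0819, 0.133 and 0.239 CPM in CM and 539.5, 206, 449 and 762 CPM in CF (log2 fold change -11.90 ± 0.66 SE, FDR 1.53e-09). Cyp2a4, a steroid 15-alpha-hydroxylase, read 1.53, 1.06, 0.663 and 1.2 CPM in CM and 1558, 1532, 1581 and 1051 CPM in CF (log2 fold change -10.32 ± 1.15 SE, FDR 1.09e-05). In these the lowest CF library exceeded the highest CM library by 2 or more orders of magnitude. Expression was lower but measurable in males for the P450 genes Cyp2c69 (log2 fold change -7.07 ± 0.47 SE, FDR 1.76e-08), Cyp17a1 (log2 fold change -5.03 ± 0.38 SE, FDR 1e-07), which encodes the 17-alpha-hydroxylase of androgen and glucocorticoid synthesis, Cyp2a22 (log2 fold change -4.49 ± 0.44 SE, FDR 2.12e-06), and for Acot3, a peroxisomal acyl-CoA thioesterase (log2 fold change -5.26 ± 0.46 SE, FDR 5.66e-07). Reads mapping to several places were removed before counting, so values of near-identical paralogs (Cyp2a, Cyp2b, Cyp2c, Cyp3a, Sult2a, Sult3a) are uncertain in level.

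**Figure D1:**
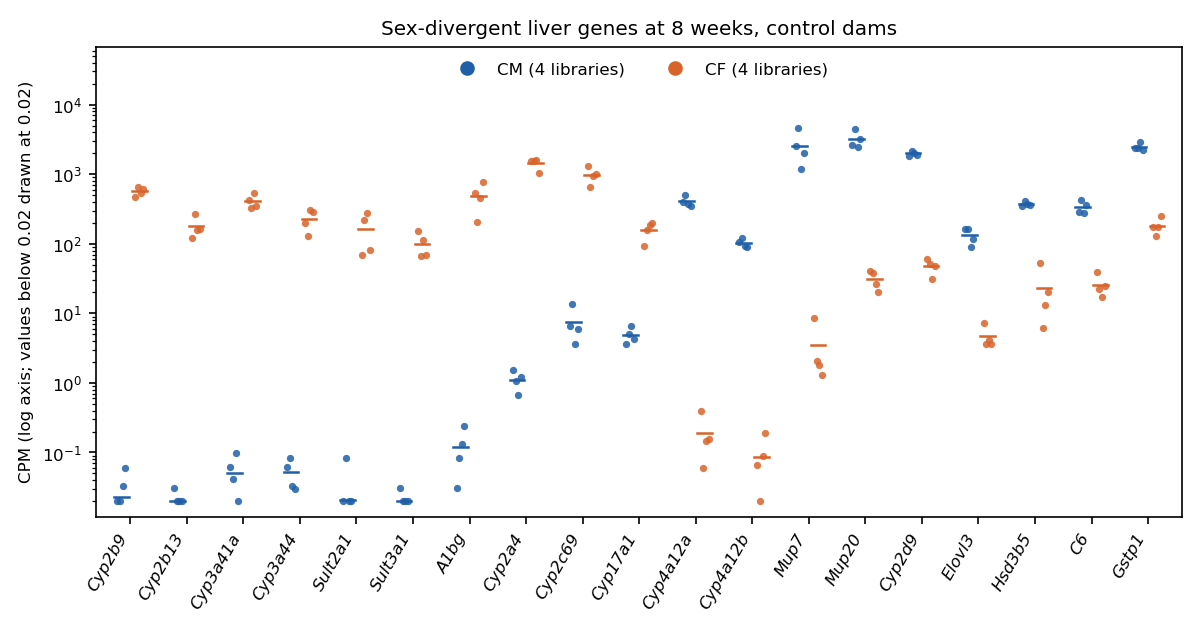
CPM per library on a log axis for 19 genes of the comparison; points are the 4 CM (blue) and 4 CF (orange) libraries, and lines are group means. The first 10 genes were higher in every CF library, with Cyp2b9 at 466 CPM or more in CF, and the last 9 in every CM library, with Cyp4a12a at 344 CPM or more in CM.

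The promoters of a few of these genes are shown because they hold TTCNNNGAA, the core palindrome that STAT5 and BCL6 recognise. The sequences are from RefSeq (GRCm38.p6, the assembly also called mm10), cover 250 bases before to 50 bases after the annotated start, read 5′ to 3′ on the gene's strand, and carry the match in capitals. Shown are the 3 genes with the largest differences toward CF among genes whose listed promoter held the motif, and the prolactin receptor gene Prlr.
Sult3a1, chr10:33857472-33857771, plus strand: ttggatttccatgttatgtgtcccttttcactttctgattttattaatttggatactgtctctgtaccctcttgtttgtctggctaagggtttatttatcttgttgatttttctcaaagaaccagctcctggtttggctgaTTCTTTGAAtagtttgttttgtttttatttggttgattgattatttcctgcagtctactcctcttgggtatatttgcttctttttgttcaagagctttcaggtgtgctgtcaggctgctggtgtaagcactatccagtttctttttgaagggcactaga
A1bg, chr15:60921221-60921520, minus strand: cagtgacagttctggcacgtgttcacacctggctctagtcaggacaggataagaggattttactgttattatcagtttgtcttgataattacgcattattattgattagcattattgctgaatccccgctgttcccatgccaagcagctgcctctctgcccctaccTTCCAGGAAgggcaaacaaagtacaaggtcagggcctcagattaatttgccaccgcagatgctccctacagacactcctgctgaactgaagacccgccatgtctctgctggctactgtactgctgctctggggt
Slc22a26, chr19:7802618-7802917, minus strand: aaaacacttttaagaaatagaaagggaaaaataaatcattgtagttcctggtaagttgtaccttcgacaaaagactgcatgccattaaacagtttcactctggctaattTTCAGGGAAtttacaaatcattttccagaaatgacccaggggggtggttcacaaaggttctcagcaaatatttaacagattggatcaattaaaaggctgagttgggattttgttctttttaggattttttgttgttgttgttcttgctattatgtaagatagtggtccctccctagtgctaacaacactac
Prlr, chr15:10223656-10223955, plus strand, 1 of 3 listed promoters: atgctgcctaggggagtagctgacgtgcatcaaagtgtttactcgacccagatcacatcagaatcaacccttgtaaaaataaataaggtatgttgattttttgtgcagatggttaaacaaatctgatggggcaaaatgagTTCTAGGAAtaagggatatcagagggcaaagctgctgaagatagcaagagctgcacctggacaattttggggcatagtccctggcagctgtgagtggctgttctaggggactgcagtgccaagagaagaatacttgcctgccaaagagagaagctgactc
The match began 109 bases before the start in Sult3a1, 84 in A1bg, 141 in Slc22a26 and 110 in Prlr. A promoter was listed for 10244 of the 13769 genes, and the motif, which is its own reverse complement, lay in 864 of them (8.43%). It lay in 37 of 414 genes called higher in CM (8.94%) and in 68 of 615 called higher in CF (11.1%). Among genes at least 4-fold apart, it lay in 4 of 56 higher in CM (7.14%) and 11 of 69 higher in CF (15.9%). The stricter form TTCCNAGAA lay in 2.70% of all promoters, 2.66% of those higher in CM and 3.25% of those higher in CF, and in 1 of 56 (1.79%) and 4 of 69 (5.80%) of those at least 4-fold apart. These are letter matches in a short window, which says nothing about binding. Cyp4a12a, Cyp4a12b, Mup20, Sult2a1, Elovl3 and Cyp7b1 had no listed promoter.

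Toward males, the largest differences included those of fatty acid hydroxylases and major urinary proteins. Cyp4a12a, which makes 20-HETE from arachidonic acid, read 405, 502, 379 and 344 CPM in CM and 0.401, 0.0599, 0.147 and 0.157 CPM in CF (log2 fold change 11.06 ± 0.56 SE, FDR 5.59e-10). Cyp4a12b read 106, 121, 93.2 and 88.8 CPM in CM and 0.0668, 0, 0.0881 and 0.188 CPM in CF (log2 fold change 10.17 ± 0.44 SE, FDR 7.64e-11). The CF libraries were all below 0.5 CPM for both. Mup7 read 2509, 4553, 1200 and 2046 CPM in CM and 8.69, 2.07, 1.82 and 1.32 CPM in CF (log2 fold change 9.54 ± 1.00 SE, FDR 5.12e-06). Mup20, which encodes the male pheromone darcin, read 2647, 4453, 2437 and 3233 CPM in CM and 40.2, 37.6, 26.8 and 20.1 CPM in CF (log2 fold change 6.68 ± 0.44 SE, FDR 1.64e-08). Mup3 was measurable in both sexes and read 9928, 14360, 8924 and 9210 CPM in CM and 3862, 2673, 2034 and 2412 CPM in CF (log2 fold change 1.95 ± 0.27 SE, FDR 0.000133). CM2 was the highest library for all 3, yet the lowest CM library remained above the highest CF library in each. Of 19 Mup genes tested, 15 were called, all higher in CM (78.9%, against 4.01% of all genes), with a median log2 fold change of 3.99, and their summed expression was 14889 to 27920 CPM in CM and 2489 to 4611 CPM in CF. Several of them, Mup7 and Mup20 included, are also counted on the known male-biased list given below. Mup14 (log2 fold change 8.25 ± 0.66 SE, FDR 1.63e-07), Mup1 (log2 fold change 7.82 ± 0.65 SE, FDR 2.76e-07) and Mup21 (log2 fold change 5.77 ± 0.49 SE, FDR 3.76e-07) belong to the same locus, at chr4:59964294-62150863, where members are so alike that reads may be shared unevenly. Of the pseudogenes in this interval, Mup-ps20 was higher in CM (log2 fold change 8.45 ± 0.60 SE, FDR 4.05e-08). Mup-ps10 read 0, 0.123, 0.0331 and 0 CPM in CM and 0.301, 0.928, 1.5 and 0.0941 CPM in CF and was higher in CF (log2 fold change -4.25 ± 1.08 SE, FDR 0.0176). Its call was lost without CM1, CM4 or CF3 (FDR 0.0538 to 0.0634).

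Other male-predominant genes lay outside these families. Cyp2d9, a testosterone 16-alpha-hydroxylase, read 1837, 2168, 2049 and 1901 CPM in CM and 60.7, 50.6, 31.3 and 48.1 CPM in CF (log2 fold change 5.38 ± 0.35 SE, FDR 1.48e-08). Elovl3, an elongase of very long-chain fatty acids, read 162, 163, 91.4 and 119 CPM in CM and 7.25, 3.65, 4.17 and 3.61 CPM in CF (log2 fold change 4.84 ± 0.42 SE, FDR 5.35e-07). Hsd3b5, a 3-ketosteroid reductase, read 345, 417, 369 and 356 CPM in CM and 52.6, 6.23, 13.1 and 20.2 CPM in CF (log2 fold change 4.01 ± 0.74 SE, FDR 0.00159). In each, all CM libraries exceeded all CF libraries, and CF1 was the highest CF library. Gstp1, a glutathione transferase, read 2403, 2355, 2927 and 2267 CPM in CM and 175, 132, 174 and 249 CPM in CF (log2 fold change 3.77 ± 0.30 SE, FDR 1.7e-07). Gm12718, a lincRNA gene at chr4:103382500-103492040, was at 0 reads in all CF libraries and read 1.95 to 3.69 CPM in CM, at least 120-fold higher. The lincRNA gene Gm50136 (ratio 232, 95% exact Poisson interval 79.4 to 1130, FDR 2.98e-05) and Obp2a, an odorant-binding lipocalin (ratio 133, 95% exact Poisson interval 37 to 1100, FDR 0.000228), had 3 and 2 reads over all CF libraries. Nat8f5, of the N-acetyltransferase 8 family (log2 fold change 6.83 ± 0.57 SE, FDR 3.09e-07), and the trefoil factor gene Tff3 (log2 fold change 6.38 ± 0.75 SE, FDR 2.01e-05), which was picked after its values were seen, completed the group of genes nearly silent in females. Among called genes with the most reads, Serpina1e (log2 fold change 3.12 ± 0.62 SE, FDR 0.00306) and Serpina1c (log2 fold change 0.72 ± 0.19 SE, FDR 0.0245), of the alpha-1-antitrypsin family, and Cyp3a11 (log2 fold change 0.60 ± 0.15 SE, FDR 0.0162) were higher in CM, and C3 (log2 fold change -0.77 ± 0.14 SE, FDR 0.0012), Ces1c (log2 fold change -0.62 ± 0.11 SE, FDR 0.000945), Mat1a, which makes S-adenosylmethionine (log2 fold change -0.57 ± 0.14 SE, FDR 0.0173), and Itih4 (log2 fold change -0.58 ± 0.09 SE, FDR 0.000459) were higher in CF. Reads of Serpina1 and Serpina3 paralogs may be shared unevenly. The call of Cyp3a11 was lost without CM1, CF3 or CF4 (FDR 0.0536 to 0.0612). That of Serpina1c was lost without CM2, CM3, CF2, CF3 or CF4 (FDR 0.0516 to 0.0847), and that of Mat1a without CM1, CM2 or CF2 (FDR 0.0504 to 0.0795). Serpina3k was higher in CM (log2 fold change 0.95 ± 0.29 SE, FDR 0.0464), a call lost without CM1, CM2, CM3, CM4, CF2, CF3 or CF4 (FDR 0.0613 to 0.143).

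Some loci held neighbouring genes that differed in opposite directions. At the Cyp4a locus (chr4:115299046-115621602), 3 of 6 tested genes were higher in CM and 2 were higher in CF, against 4.01% and 6.17% of all genes. There Cyp4a14, an inducible fatty acid omega-hydroxylase, read 167, 83, 65 and 57.8 CPM in CM and 389, 217, 341 and 269.9 CPM in CF (log2 fold change -1.71 ± 0.38 SE, FDR 0.00701), the opposite of Cyp4a12a. Cyp4a10 also was higher in CF (log2 fold change -1.10 ± 0.29 SE, FDR 0.0234), a call lost without CM2, CM3, CM4, CF1 or CF3 (FDR 0.0598 to 0.0768). At chr19:7781041-8405111, which holds organic anion transporter genes, Slc22a26 read 0.655, 0.287, 0.497 and 0.329 CPM in CM and 236, 237, 258 and 241 CPM in CF (log2 fold change -9.07 ± 0.45 SE, FDR 4.86e-10). Its neighbour Slc22a28 read 13.9, 17.5, 15.3 and 13.4 CPM in CM and 3.27, 0.449, 0.822 and 1.29 CPM in CF (log2 fold change 3.38 ± 0.59 SE, FDR 0.00115). Slc22a27 (log2 fold change -6.70 ± 0.36 SE, FDR 1.14e-09) and Slc22a29 (log2 fold change -3.54 ± 0.62 SE, FDR 0.00111) went with Slc22a26. The adjacent P-glycoprotein genes at chr5:8660077-8866315, whose products export drugs and other hydrophobic compounds, also parted. Abcb1a read 2.93, 2.62, 3.28 and 2.75 CPM in CM and 8.22, 27.4, 13 and 17.9 CPM in CF (log2 fold change -2.52 ± 0.34 SE, FDR 8.73e-05). Abcb1b read 1.59, 1.39, 1.13 and 1.41 CPM in CM and 0.568, 0.569, 0.528 and 0.439 CPM in CF (log2 fold change 1.38 ± 0.29 SE, FDR 0.00416). No library of one sex crossed into the range of the other in either gene.

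By family, 12 of 36 Cyp2 genes were higher in CF and 6 higher in CM, 6 of 8 Cyp3 genes were higher in CF and 1 higher in CM, and 11 of 13 Sult genes were higher in CF with none called higher in CM, against 4.01% of all genes higher in CM and 6.17% higher in CF. The median log2 fold change of the Sult genes was -1.17, and the same when the 3 members with no read in CM were set to their bound. Of 17 Ugt genes, which encode glucuronosyltransferases, 5 were higher in CM, led by Ugt2b38 (log2 fold change 4.74 ± 0.56 SE, FDR 2.2e-05), and 4 were higher in CF (52.9% called). Ugt1 genes share exons, so their reads can be assigned to the wrong member. Of 5 Fmo genes, which encode flavin monooxygenases, 4 were higher in CF, including Fmo1 at log2 fold change -0.88 ± 0.10 SE, FDR 2.25e-05, and Fmo5 was higher in CM (log2 fold change 0.56 ± 0.13 SE, FDR 0.00827). Uptake transporters of the Slco1a group differed in both directions: Slco1a4 read 52.7, 32.9, 49.6 and 37.9 CPM in CM and 89.7, 203, 165 and 143 CPM in CF (log2 fold change -1.79 ± 0.29 SE, FDR 0.000589). Slco1a1 read 521, 434, 470.3 and 532 CPM in CM and 274, 113, 137 and 178 CPM in CF (log2 fold change 1.48 ± 0.44 SE, FDR 0.0398), and its call was lost without CM1, CM2, CM3, CM4, CF2, CF3 or CF4 (FDR 0.0651 to 0.122). In the glutathione and NRF2 list, 7 of 39 genes were higher in CM, including Gsta1 (log2 fold change 2.96 ± 0.68 SE, FDR 0.00914), and 4 were higher in CF, including the quinone reductase gene Nqo1 (log2 fold change -1.16 ± 0.15 SE, FDR 8.46e-05), which is 28.2% called against 10.2% of all genes. That list gave 6 calls without CM1, without CM2 or without CF4.

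Lists of genes long known for male or female predominance in mouse liver moved as named: 27 of 28 known male-biased genes were higher in CM (96.4%, against 4.01% of all genes) and 36 of 38 known female-biased genes were higher in CF (94.7%, against 6.17% of all genes), with none in the opposite direction. These lists were drawn up with this tissue in mind and are no independent evidence. Their summed expression was 23400 to 35055 CPM in CM and 3688 to 6143 CPM in CF for the male-biased genes, and 247 to 314 CPM in CM and 6960 to 8236 CPM in CF for the female-biased genes, and the ranges of the sexes did not overlap in either list. Several of the other gene lists include genes that the study names for this comparison, so their shares called are no independent evidence either.

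The regulators of this divergence were themselves divergent in part. Cux2, a homeobox repressor known from female liver, read 0.374, 0.246, 0.431 and 0.359 CPM in CM and 42.3, 126, 45.1 and 58.2 CPM in CF (log2 fold change -7.55 ± 0.49 SE, FDR 1.3e-08). Trim24, a co-regulator of nuclear receptors, read 17.6, 26, 17.6 and 20.8 CPM in CM and 72.1, 115, 57.1 and 68.3 CPM in CF (log2 fold change -1.93 ± 0.22 SE, FDR 1.25e-05). Tox, an HMG-box factor, read 3.4, 3.89, 2.82 and 3.41 CPM in CM and 9.26, 14.5, 14.8 and 12.3 CPM in CF (log2 fold change -1.91 ± 0.19 SE, FDR 2.29e-06). CF2 was the highest library for Cux2 and Trim24, and both remained called in every fit without 1 library. Prlr, the prolactin receptor, read 81.5, 68.8, 58 and 66.8 CPM in CM and 398, 449, 399 and 338 CPM in CF (log2 fold change -2.53 ± 0.19 SE, FDR 8.57e-08). Esr1, the estrogen receptor alpha gene, read 18.8, 10.4, 18.2 and 16.6 CPM in CM and 53.2, 82.1, 64.8 and 60.8 CPM in CF (log2 fold change -2.03 ± 0.28 SE, FDR 0.000137). Nr1i3, which encodes the xenobiotic receptor CAR, read 145, 127, 171 and 148 CPM in CM and 356, 469, 383 and 293 CPM in CF (log2 fold change -1.34 ± 0.20 SE, FDR 0.000262), and its target Cyp2b10 was likewise higher in CF (log2 fold change -2.02 ± 0.35 SE, FDR 0.00102). Cux2 also showed the widest gap of these genes, with 0.431 CPM as the highest CM value and 42.3 CPM as the lowest CF value. One of 2 listed Cux2 promoters holds ATCGAT, a core searched for as a HNF6 and CUX site and found in 0.879% of listed promoters. It begins 72 bases before the start and is in capitals here.
Cux2, chr5:122047776-122048075, minus strand: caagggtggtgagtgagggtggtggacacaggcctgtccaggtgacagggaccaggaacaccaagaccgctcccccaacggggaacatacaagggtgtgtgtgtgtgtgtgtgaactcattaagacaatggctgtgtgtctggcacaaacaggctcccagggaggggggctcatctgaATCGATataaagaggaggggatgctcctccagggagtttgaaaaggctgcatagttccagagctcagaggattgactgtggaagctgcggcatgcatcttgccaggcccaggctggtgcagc

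Toward males, Onecut1 (HNF6) read 43.2, 53.1, 50.6 and 65 CPM in CM and 17.9, 7.39, 30.4 and 11.6 CPM in CF (log2 fold change 1.65 ± 0.44 SE, FDR 0.022). Foxa3 read 108, 142, 99.5 and 133 CPM in CM and 55.3, 35.1, 31.8 and 37.1 CPM in CF (log2 fold change 1.60 ± 0.21 SE, FDR 9.28e-05). Foxa1 read 34.6, 37.3, 27.9 and 37.6 CPM in CM and 19.1, 14.6, 19.6 and 16.8 CPM in CF (log2 fold change 0.97 ± 0.18 SE, FDR 0.00199). CM was above CF in all libraries of these liver transcription factors, and the call of Onecut1 was lost without CM4, CF2 or CF4 (FDR 0.0551 to 0.0714). Mbd1, which binds methylated CpG, read 95, 179, 148 and 138 CPM in CM and 42.5, 36.7, 34.1 and 39.4 CPM in CF (log2 fold change 1.88 ± 0.16 SE, FDR 3.2e-07). Hnf4a, a master factor of hepatocyte identity, differed by 1.32-fold (log2 fold change 0.40 ± 0.11 SE, FDR 0.027), a call lost without CM3, CM4, CF2 or CF3 (FDR 0.0637 to 0.0883). Of 37 tested genes on the growth hormone and nuclear regulator list, 5 were higher in CM and 9 higher in CF (37.8% called, against 10.2% of all genes), and 23 were not called. Cux2, Prlr and Tox are also on the known female-biased list, and the study names Esr1, Foxa1 and Mbd1 for this comparison. The share called is therefore no independent evidence. Among the genes not called were the growth hormone receptor gene Ghr (log2 fold change 0.09 ± 0.12 SE, FDR 0.661), Stat5b (log2 fold change -0.24 ± 0.14 SE, FDR 0.317), the growth hormone target Igf1 (log2 fold change -0.32 ± 0.17 SE, FDR 0.262) and the forkhead factor gene Foxa2 (log2 fold change 0.38 ± 0.18 SE, FDR 0.215). Bcl6 read 17, 31.8, 11.1 and 23.7 CPM in CM and 8.19, 31.6, 6.08 and 41.5 CPM in CF and ranged widely within both sexes (log2 fold change -0.07 ± 0.50 SE, FDR 0.947). Socs2, a STAT5 target, did so too, at 21.3, 65.7, 11.9 and 40.8 CPM in CM and 75.5, 34.7, 47.8 and 17 CPM in CF (log2 fold change -0.33 ± 0.45 SE, FDR 0.695). Cish, a further STAT5 target, was higher in all CM libraries without passing the threshold (log2 fold change 0.83 ± 0.28 SE, FDR 0.0709), which it passed by the likelihood ratio test, by DESeq2, with the replicate block and with 8 libraries in the fit. Stat5a was higher in CF (log2 fold change -0.68 ± 0.17 SE, FDR 0.0137), but the call was lost without CM2 or CF4 (FDR 0.0529 to 0.0616).

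**Figure D2:**
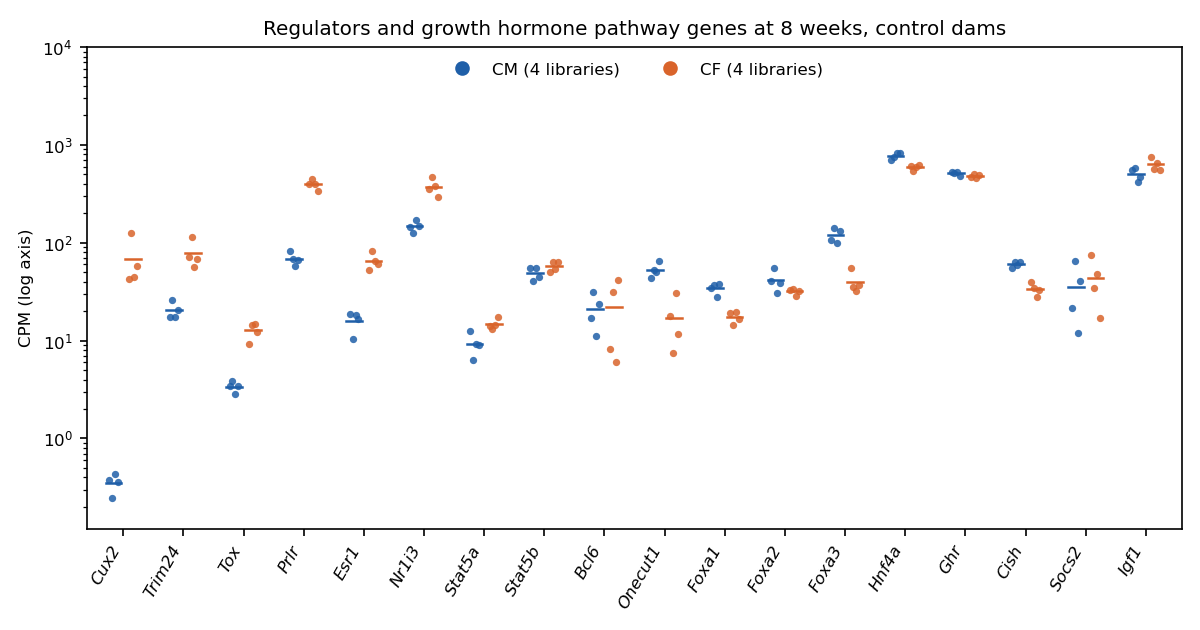
CPM per library on a log axis for 18 regulators and growth hormone pathway genes; points are the 4 CM (blue) and 4 CF (orange) libraries, and lines are group means. Cux2, Trim24, Tox, Prlr, Esr1 and Nr1i3 lay higher in every CF library, Foxa1, Foxa3 and Onecut1 lay higher in every CM library, and Bcl6 and Socs2 overlapped between the sexes.

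In steroid and bile acid metabolism the enzymes divided between the sexes. Of 25 steroid hormone genes tested, 7 were higher in CM and 5 higher in CF (48% called, against 10.2% of all genes). Srd5a1, the steroid 5-alpha-reductase that makes dihydrotestosterone, read 102, 118, 126 and 89.1 CPM in CM and 48, 29, 33.6 and 58.6 CPM in CF (log2 fold change 1.36 ± 0.18 SE, FDR 9.88e-05). Hsd3b2, a 3-beta-hydroxysteroid dehydrogenase, was higher in CM (log2 fold change 0.89 ± 0.14 SE, FDR 0.000431). Of 33 bile acid genes, 7 were higher in CM and 4 higher in CF (33.3% called). With total count scaling 4 were higher in each sex, and with the replicate block 4 were higher in CM and 5 higher in CF. Cyp7b1, the oxysterol 7-alpha-hydroxylase of the alternative pathway, read 269.7, 390, 199.9 and 253 CPM in CM and 55, 27.8, 28.7 and 19.3 CPM in CF (log2 fold change 3.09 ± 0.42 SE, FDR 9.88e-05). Cyp8b1, the 12-alpha-hydroxylase that sets the share of cholic acid, read 554, 516, 498 and 479 CPM in CM and 132, 290.3, 182 and 221 CPM in CF (log2 fold change 1.31 ± 0.19 SE, FDR 0.000243). Akr1d1, the 5-beta-reductase, read 165, 139, 161 and 124 CPM in CM and 221, 368, 305 and 292 CPM in CF (log2 fold change -1.01 ± 0.19 SE, FDR 0.00172). The first 2 were higher in all CM libraries and the last in all CF libraries. Cyp7a1, the rate-limiting enzyme of the classical pathway, read 150, 195, 139 and 200 CPM in CM and 148, 382, 316 and 335 CPM in CF, with overlapping groups (log2 fold change -0.79 ± 0.37 SE, FDR 0.198), and Cyp27a1 was close to equal on average (log2 fold change 0.10 ± 0.15 SE, FDR 0.715). Scp2, whose product carries sterols and cleaves branched acyl-CoA in peroxisomes, read 4007, 4177, 3640 and 3669 CPM in CM and 1649, 1199, 1286 and 1159 CPM in CF (log2 fold change 1.55 ± 0.14 SE, FDR 1.1e-06).

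Cholesterol synthesis leaned to one sex: all 19 tested genes had a negative log2 fold change and 12 were called, all higher in CF (63.2%, against 10.2% of all genes). The median log2 fold change was -0.59, and the summed expression was 2986 to 3952 CPM in CM and 4826 to 6559 CPM in CF. Hmgcs1, the HMG-CoA synthase gene, read 406, 299, 378 and 264 CPM in CM and 771, 608, 1020 and 759 CPM in CF (log2 fold change -1.23 ± 0.18 SE, FDR 0.000179). Lss, lanosterol synthase, read 82.2, 66.5, 94 and 67.6 CPM in CM and 137, 129.9, 206 and 192 CPM in CF (log2 fold change -1.10 ± 0.19 SE, FDR 0.000886). The groups were apart for both genes. Mvd (log2 fold change -1.10 ± 0.20 SE, FDR 0.00139) and Sqle (log2 fold change -0.60 ± 0.14 SE, FDR 0.011) followed. The call of Hsd17b7 (log2 fold change -0.64 ± 0.19 SE, FDR 0.0386) was lost without any 1 of the 8 libraries (FDR 0.0554 to 0.124), that of Fdft1 (log2 fold change -0.73 ± 0.19 SE, FDR 0.0198) without CM2, CM4, CF3 or CF4 (FDR 0.0644 to 0.0811), and that of Idi1 (log2 fold change -0.85 ± 0.22 SE, FDR 0.0187) without CM2, CF3 or CF4 (FDR 0.0628 to 0.0844). Over the 8 fits that left out 1 library, the log2 fold changes stayed between -0.69 and -0.56 for Hsd17b7, -0.86 and -0.63 for Fdft1, and -1.02 and -0.66 for Idi1. The number of called genes fell to 6 without CF3 and to 7 without CM2, without CM4 or without CF4, with none higher in CM.

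The sterol-sensing side showed the same direction in 11 of 14 genes, of which 4 were called (28.6%, against 10.2% of all genes). Insig1, which holds SREBPs in the endoplasmic reticulum and is itself their target, read 383, 247, 376 and 254 CPM in CM and 467, 638, 714 and 588 CPM in CF (log2 fold change -0.93 ± 0.18 SE, FDR 0.00213). Srebf2, the SREBP2 gene, was also higher in CF (log2 fold change -0.56 ± 0.15 SE, FDR 0.0213), a call lost without CM1, CM2, CM4, CF3 or CF4 (FDR 0.0534 to 0.101). With CM1, CM2, CF3 or CF4 left out, 1 gene of the list was called, and without CM4, 2. Of the cholesterol genes, 14 had a listed promoter. The sterol element searched, TCACNCCAC on either strand, lay in 1 of them, Hmgcs1 (7.14%), against 1.51% of all promoters. It also lay in 4 of 69 promoters of genes at least 4-fold higher in CF (5.8%). TTCCNAGAA likewise lay in 1 of the 14 cholesterol gene promoters, so nothing is drawn from a single match. The sterol element is in capitals in this sequence, 137 bases before the start.
Hmgcs1, chr13:119690101-119690400, plus strand: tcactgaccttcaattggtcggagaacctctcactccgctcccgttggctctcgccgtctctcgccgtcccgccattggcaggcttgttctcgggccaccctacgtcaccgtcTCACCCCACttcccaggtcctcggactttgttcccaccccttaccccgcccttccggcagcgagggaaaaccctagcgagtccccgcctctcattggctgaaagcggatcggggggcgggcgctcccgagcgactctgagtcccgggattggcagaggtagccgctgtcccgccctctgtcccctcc

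Fatty acid and triglyceride genes split. Pnpla3, a lipase-like gene known to respond to SREBP-1c, read 0.53, 0.86, 0.729 and 0.928 CPM in CM and 6.95, 7.04, 10.2 and 7 CPM in CF (log2 fold change -3.35 ± 0.61 SE, FDR 0.00155). Srebf1, which encodes SREBP-1, read 263, 181, 291 and 229.5 CPM in CM and 416, 465, 496 and 655 CPM in CF (log2 fold change -1.08 ± 0.19 SE, FDR 0.00146). Both were higher in all CF libraries. Fasn, the fatty acid synthase gene, was higher in CF (log2 fold change -1.06 ± 0.32 SE, FDR 0.0428), a call lost without CM1, CM2, CM4, CF2, CF3 or CF4 (FDR 0.0741 to 0.156). Lpin1, a phosphatidate phosphatase, read 389, 585, 889 and 719 CPM in CM and 142, 121, 172 and 101 CPM in CF (log2 fold change 2.27 ± 0.24 SE, FDR 4.38e-06). Gpat4, which starts glycerolipid synthesis, was higher in CM (log2 fold change 0.88 ± 0.12 SE, FDR 0.000145), and Scd1, the stearoyl-CoA desaturase gene, overlapped (log2 fold change 0.26 ± 0.36 SE, FDR 0.694). Of 25 genes on this list, 3 were higher in CM and 4 higher in CF (28% called, against 10.2% of all genes), with a median log2 fold change of -0.17.

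Of 17 lipid droplet genes, 5 were called, all higher in CM (29.4%, against 4.01% of all genes higher in CM), with a median log2 fold change of 0.45. Fitm1, Fitm2 and Cidec are among these calls, and the study names them as higher in males in these data. The share called is therefore no independent evidence. Fitm1, which helps bud droplets from the endoplasmic reticulum, read 32.5, 32.4, 27.2 and 25.7 CPM in CM and 4.41, 5.27, 5.49 and 4.33 CPM in CF (log2 fold change 2.59 ± 0.25 SE, FDR 1.83e-06). Cidec, which fuses droplets, read 2.18, 3.15, 1.79 and 2.87 CPM in CM and 0.602, 0.629, 0.587 and 0.314 CPM in CF (log2 fold change 2.22 ± 0.41 SE, FDR 0.00178). Plin4, a droplet coat protein gene, read 3.87, 4.22, 8.02 and 5.24 CPM in CM and 2.44, 1.38, 1.82 and 2.26 CPM in CF (log2 fold change 1.44 ± 0.26 SE, FDR 0.00133). The groups did not overlap in any of the 3. Fitm2 (log2 fold change 0.46 ± 0.13 SE, FDR 0.0329) and Pnpla2, the adipose triglyceride lipase gene (log2 fold change 0.50 ± 0.14 SE, FDR 0.0274), differed less. The call of Fitm2 was lost without CM1, CM2, CM4, CF1 or CF4 (FDR 0.057 to 0.104) and that of Pnpla2 without CM1, CM3, CM4, CF1, CF2 or CF3 (FDR 0.0514 to 0.0742), and the list gave 3 calls without CM1, CM4 or CF1. Of 7 adipose markers listed, 3 were tested, summed at 2613 to 3507 CPM in CM and 1181 to 1363 CPM in CF, and among them Car3, also a hepatocyte gene, was called (log2 fold change 1.27 ± 0.14 SE, FDR 1.25e-05). The part of adipose tissue in these values was not tested.

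Of 34 genes of fatty acid oxidation and ketogenesis, 9 were higher in CM and 3 higher in CF (35.3% called, against 10.2% of all genes). The male-high genes included peroxisomal enzymes, with Acox2 (log2 fold change 0.61 ± 0.13 SE, FDR 0.00633) and the thiolase Acaa1b (log2 fold change 0.80 ± 0.20 SE, FDR 0.0137). Abcd2, which imports very long-chain acyl-CoA into peroxisomes, went the other way, at 20.8, 11.5, 18.3 and 21.1 CPM in CM and 104, 127, 109 and 101 CPM in CF (log2 fold change -2.62 ± 0.27 SE, FDR 4.02e-06). The list gave 7 calls without CM2 and without CF2. With total count scaling, 5 of its genes were higher in CM and 4 higher in CF. In lipoprotein handling, Vldlr read 2.15, 1.52, 2.38 and 1.44 CPM in CM and 3.64, 9.97, 7.72 and 9.88 CPM in CF (log2 fold change -2.06 ± 0.35 SE, FDR 0.000925), and Angptl4, an inhibitor of lipoprotein lipase, read 87, 121, 149 and 132 CPM in CM and 62.6, 43, 47.3 and 24.9 CPM in CF (log2 fold change 1.46 ± 0.28 SE, FDR 0.00225).

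Complement genes differed in both directions. Of 29 tested, 8 were higher in CM and 2 higher in CF (34.5% called, against 10.2% of all genes). C6, of the membrane attack complex, read 284, 432, 277 and 360.1 CPM in CM and 38.9, 22.4, 17.3 and 24.5 CPM in CF (log2 fold change 3.71 ± 0.28 SE, FDR 1.13e-07). C4a, known as sex-limited protein in mice, read 42.4, 73.8, 40.3 and 34.8 CPM in CM and 4.91, 3.41, 4.43 and 4.24 CPM in CF (log2 fold change 3.49 ± 0.31 SE, FDR 6.07e-07). C8a read 742, 809.6, 826 and 837 CPM in CM and 339.7, 190.1, 200.5 and 248 CPM in CF (log2 fold change 1.72 ± 0.30 SE, FDR 0.00109). C8b (log2 fold change 1.53 ± 0.23 SE, FDR 0.000233) and C9 (log2 fold change 1.54 ± 0.22 SE, FDR 0.000195), which complete the attack complex, were higher in all CM libraries as well. C3, the central component, went to the other sex, at 6737, 6166, 7887 and 6879 CPM in CM and 11040, 10560, 11740 and 13870 CPM in CF.

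Of 26 acute phase genes, 8 were higher in CF and 2 higher in CM (38.5% called, against 10.2% of all genes), 16 were not called, and the list summed to 43032 to 54384 CPM in CM and 34829 to 52868 CPM in CF. Mt1, a metallothionein, read 16.9, 23.7, 21.6 and 32.9 CPM in CM and 60, 138, 124 and 229 CPM in CF (log2 fold change -2.53 ± 0.56 SE, FDR 0.00651). Orm3, an orosomucoid, read 1.31, 1.31, 1.49 and 0.479 CPM in CM and 6.65, 15.8, 11.6 and 7.06 CPM in CF (log2 fold change -3.17 ± 0.47 SE, FDR 0.00023). Lcn2, lipocalin 2, read 2.21, 1.84, 3.54 and 2.42 CPM in CM and 9.82, 8.47, 10 and 10.8 CPM in CF (log2 fold change -1.96 ± 0.31 SE, FDR 0.000431). Mt2 moved with Mt1 (log2 fold change -2.76 ± 0.63 SE, FDR 0.00855), and Saa1, serum amyloid A, was not called (log2 fold change 0.64 ± 0.23 SE, FDR 0.0967). Of 16 iron genes, 3 were called, all higher in CF (18.8%, against 6.17% of all genes), with a median log2 fold change of -0.10. Hamp2, a hepcidin gene, was 1 of them, at 33.7, 40, 51.5 and 24.8 CPM in CM and 189.5, 619, 523 and 547 CPM in CF (log2 fold change -3.65 ± 0.67 SE, FDR 0.00161). The hepcidin gene Hamp, also on the list, was not called.

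Of 39 interferon-response genes, 38 had a negative log2 fold change, 21 were called, all higher in CF (53.8%, against 6.17% of all genes higher in CF), and the median was -0.55. The list summed to 972 to 1142 CPM in CM and 1263 to 1631 CPM in CF. Gbp3, a guanylate-binding GTPase, read 6.86, 6.84, 4.51 and 7.33 CPM in CM and 24.2, 36.7, 22.5 and 15.6 CPM in CF (log2 fold change -1.95 ± 0.24 SE, FDR 3.42e-05). Irf1, a transcription factor of the interferon response, read 28.9, 20, 26.3 and 26.6 CPM in CM and 54.9, 60.7, 43.7 and 59.1 CPM in CF (log2 fold change -1.10 ± 0.13 SE, FDR 2.98e-05). Trim5, a restriction factor, read 0.935, 1.6, 1.16 and 0.778 CPM in CM and 2.71, 3.95, 2.2 and 2.57 CPM in CF (log2 fold change -1.37 ± 0.30 SE, FDR 0.00691). No library of one sex reached the other in these. Oas3, which senses double-stranded RNA, was higher in CF (log2 fold change -1.29 ± 0.32 SE, FDR 0.0148), a call lost without CF4 (FDR 0.0586). Il15, which sustains natural killer cells, read 1.09, 0.696, 0.828 and 1.11 CPM in CM and 1.91, 4.52, 2.32 and 2.76 CPM in CF (log2 fold change -1.62 ± 0.27 SE, FDR 0.00086), and the alarmin gene Il33 was higher in CF (log2 fold change -1.18 ± 0.27 SE, FDR 0.00792). The list gave 13 calls without CM3 and without CF2. Gbp genes are alike in sequence, so their levels are uncertain.

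Marker lists of immune cells were set beside these genes. All 13 tested Kupffer cell and macrophage markers had a negative log2 fold change, 1 was called (Ptprc, the leukocyte gene CD45, log2 fold change -1.14 ± 0.24 SE, FDR 0.00448; 7.69%, against 6.17% of all genes higher in CF) and 2 without CM4, and their sum was 267 to 540 CPM in CM and 583 to 729 CPM in CF. T and NK cell markers, 13 tested of 16 listed, summed to 7.05 to 11.4 CPM in CM and 14.6 to 17.3 CPM in CF, with 5 called higher in CF (38.5%), among them Gzmb, granzyme B (log2 fold change -1.80 ± 0.37 SE, FDR 0.00384), and with 1 call left without CM1, CM2, CF1 or CF3, 2 without CM3 and 3 without CM4 or CF2. B cell markers, 10 tested, summed to 11.1 to 17.8 CPM in CM and 17.3 to 28.8 CPM in CF, with Ms4a1, CD20 (log2 fold change -1.99 ± 0.43 SE, FDR 0.00582), and Bank1 called (20%), and 1 call without CM1, CM2, CM3, CF1 or CF2. Of 8 tested dendritic cell markers, all with a negative log2 fold change and summed at 69.6 to 120 CPM in CM and 97.7 to 145 CPM in CF, none was called by either test of edgeR or by DESeq2, 2 had an unadjusted p below 0.05, and 1 was called without CM4. Of 10 neutrophil markers, 3 were tested, summed at 2.25 to 4.07 CPM in CM and 2.91 to 4.83 CPM in CF, with 2 positive log2 fold changes, no call by the same tools and 1 at an unadjusted p below 0.05. No tested marker of these cell types was at 0 in all libraries of a sex. Of 16 genes of MHC and antigen presentation none was called by edgeR's quasi-likelihood test, 6 had an unadjusted p below 0.05, and edgeR's likelihood ratio test and DESeq2 each called 2, higher in CF. In bulk tissue, more cells of a type and more RNA per cell cannot be told apart, and the part of immune cell number in the interferon-response values was not tested.

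Wnt pathway genes leaned to females. Of 20 tested, 19 had a negative log2 fold change, 7 were called, all higher in CF (35%, against 6.17% of all genes), and the median was -0.54. The list includes genes, Wnt5a and Fzd4 among them, that the study names as higher in females in these data. Its share called is therefore no independent evidence. Axin2, a feedback inhibitor and common readout of beta-catenin, read 6.17, 4.92, 4.34 and 4.91 CPM in CM and 16.1, 12.3, 11.6 and 11.7 CPM in CF (log2 fold change -1.34 ± 0.23 SE, FDR 0.000817). Rnf43, which removes Frizzled receptors, read 20.2, 9.99, 20.2 and 17 CPM in CM and 30.5, 44.2, 34.6 and 42.2 CPM in CF (log2 fold change -1.17 ± 0.21 SE, FDR 0.00163). Wnt5a, a non-canonical ligand, read 0.312, 0.655, 0.364 and 0.299 CPM in CM and 1.8, 1.02, 1.09 and 1.29 CPM in CF (log2 fold change -1.69 ± 0.34 SE, FDR 0.00311). All CF libraries lay above all CM libraries in the 3 genes, and in the receptor gene Fzd4 (log2 fold change -0.92 ± 0.19 SE, FDR 0.00448). Ccnd1, cyclin D1, which is on the cell cycle list and not the Wnt list, read 37.1, 36, 41.9 and 48 CPM in CM and 217, 187, 182 and 128 CPM in CF (log2 fold change -2.13 ± 0.22 SE, FDR 5.12e-06), and was the only 1 of 15 cell cycle genes called (6.67%, against 10.2% of all genes), with 3 called without CM4. Of 13 pericentral hepatocyte markers, which partly depend on Wnt, 5 were higher in CF (38.5%, against 6.17% of all genes), including the transcription factor gene Tbx3 (log2 fold change -1.42 ± 0.24 SE, FDR 0.000818). Axin2 is among these 5 and is thus counted on both lists. The pericentral genes with most reads were not called: Glul, glutamine synthetase, read 1208, 953, 1235 and 1004 CPM in CM and 1560, 1178, 1522 and 1525 CPM in CF (log2 fold change -0.39 ± 0.12 SE, FDR 0.0538), and Cyp2e1 read 7661, 7609, 7597 and 6765 CPM in CM and 7445, 7126, 7843 and 5771 CPM in CF (log2 fold change 0.07 ± 0.14 SE, FDR 0.794). Glul was called without CF2 (FDR 0.026), by the likelihood ratio test, by DESeq2 and with total count scaling. Of 13 periportal markers, Cyp2f2 was higher in CM (log2 fold change 0.79 ± 0.16 SE, FDR 0.00387) and Ctsc higher in CF (15.4% called, against 10.2%).

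Of 21 proteoglycan, adhesion and cytoskeleton genes, 9 were higher in CF and 1 higher in CM (47.6% called, against 10.2% of all genes), with a median of -0.50. The list includes genes, St3gal6 among them, that the study names as higher in females in these data. Its share called is therefore no independent evidence. St3gal6, a sialyltransferase, read 2.4, 1.39, 2.25 and 1.92 CPM in CM and 5.15, 9.34, 10.9 and 9.01 CPM in CF (log2 fold change -2.10 ± 0.27 SE, FDR 5.27e-05). The count changed with single libraries, with 2 called without CM2, 4 without CM1 and 5 without CF2 or CF4. Stellate cell and fibroblast markers summed to 261 to 386 CPM in CM and 399 to 442 CPM in CF, with 3 of 14 called higher in CF (21.4%, against 6.17% of all genes), Lrat, Lum and Dcn, of which Lum and Dcn are also on the adhesion list. Of 29 collagen genes, 2 were higher in each sex (13.8% called, near the 10.2% of all genes). The paired genes Col4a3 and Col4a4, which encode alpha chains of type IV collagen and lie side by side at chr1:82448423-82722059, were higher in CF together. Col4a3 read 0.281, 0.328, 0.133 and 0.18 CPM in CM and 2.84, 13, 5.28 and 3.77 CPM in CF (log2 fold change -4.76 ± 0.55 SE, FDR 1.46e-05). Col4a4 read 0.218, 0.615, 0.298 and 0.838 CPM in CM and 1.27, 3.41, 1.79 and 1.41 CPM in CF (log2 fold change -2.0 ± 0.45 SE, FDR 0.00841).

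Of 18 immediate early and heat shock genes, 7 were called, all higher in CM (38.9%, against 4.01% of all genes), 4 were called with total count scaling, and their sums overlapped, at 1167 to 2328 CPM in CM and 1202 to 1465 CPM in CF. Hspa1b, an inducible HSP70 gene, read 14.2, 33.3, 26.2 and 32.9 CPM in CM and 5.08, 5.09, 5.87 and 5.71 CPM in CF (log2 fold change 2.29 ± 0.26 SE, FDR 1.16e-05). Hspa1a read 0.655, 1.52, 1.32 and 2.52 CPM in CM and 0.267, 0.329, 0.176 and 0.22 CPM in CF (log2 fold change 2.58 ± 0.42 SE, FDR 0.000638), and shares nearly all of its coding sequence with Hspa1b. Dusp1, a MAP kinase phosphatase, read 13.6, 67.1, 72 and 66.6 CPM in CM and 8.32, 7.78, 7.28 and 15.7 CPM in CF (log2 fold change 2.49 ± 0.44 SE, FDR 0.00114), with CM1 inside the CF range. The list gave 4 calls without CM2, without CM3, without CF2 and without CF3. Of 18 clock genes, 4 were higher in CF, led by Per3 (log2 fold change -1.31 ± 0.22 SE, FDR 0.000818), and 1 higher in CM (27.8% called, against 10.2% of all genes), while Per2 was not called (log2 fold change -0.58 ± 0.22 SE, FDR 0.103). The clock list gave 2 calls without CM1, CM2, CM4 or CF2 and 3 without CM3 or CF4. Ribosomal protein genes all had a positive log2 fold change (81 of 81, median 0.40), but only Rpl22l1 was called (1.23%, against 10.2% of all genes), and their sum was 12831 to 16632 CPM in CM and 9764 to 12086 CPM in CF. With only the 8 CM and CF libraries in the fit 22 were called, all higher in CM, beside 941 of all 13769 genes higher in CM in that fit. Without CF2 the call of Rpl22l1 was lost. Of 303 genes named Zfp, 10 were higher in CM and 16 higher in CF (8.58% called, against 10.2% of all genes), and 17 were called without CM2. Of 21 genes of H3K9 methylation, Atf7ip was the only one called (4.76%, against 10.2% of all genes), higher in CF (log2 fold change -0.58 ± 0.17 SE, FDR 0.0337), and it was lost without CM1, CM2, CM3, CM4, CF2 or CF4.

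**Figure D3:**
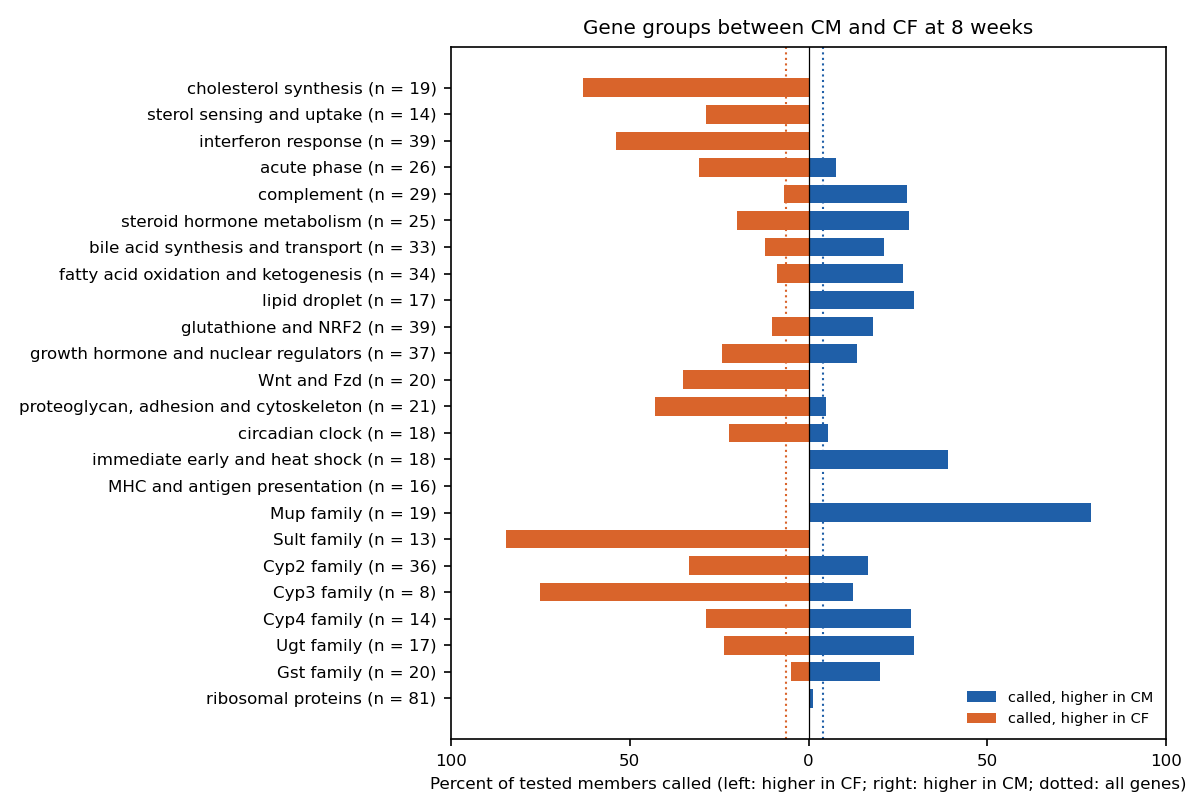
Percent of tested members called higher in CF (left, orange) and higher in CM (right, blue) in 24 gene groups, with the number tested beside each name; dotted lines mark the shares among all genes, 6.17% and 4.01%. Cholesterol synthesis, interferon-response and Sult genes extend only to the left, and Mup, lipid droplet and stress genes only to the right.

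The same sex difference was measured in other animals, the MM and MF offspring of obese dams. There 891 genes were called (6.47%), 413 higher in MM and 478 higher in MF. Of the 1402 genes called between CM and CF, 1376 (98.1%) had the same sign between MM and MF, and 650 were called in both, all with the same sign, which is 46.4% of the CM and CF calls and 73.0% of the MM and MF calls. Of the 206 genes at least 4-fold apart, 178 were called in both. The log2 fold change was nearer to 0 between MM and MF in 1141 of the 1402 genes (81.4%). These genes were chosen by their difference between CM and CF, so a smaller difference in a second set is no result by itself. The count for MM and MF moved from 561 without MF4 to 1456 without MF1 and was 497 when only the 8 MM and MF libraries entered the fit.

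No gene passed the threshold when the sex difference itself was compared between the maternal diets (0.0% called in edgeR's quasi-likelihood test, with 373 genes, or 2.71%, at an unadjusted p below 0.05). The likelihood ratio test of edgeR called 4 genes and DESeq2 called 3, and Lpin1, Mbd1 and Zbtb16 were called by both. Lpin1 had the smallest FDR (difference of log2 fold changes 2.03 ± 0.32 SE, FDR 0.108). It was 4.82-fold higher in CM than in CF, whereas obese-dam offspring read 195 ± 24.6 CPM in MM and 165 ± 35.2 CPM in MF (log2 fold change 0.24 ± 0.22 SE, FDR 0.535). It was called without CM1 and without MF2. Mbd1 (difference of log2 fold changes 1.18 ± 0.22 SE, FDR 0.312) read 57.4 ± 6.27 CPM in MM and 35.5 ± 2.84 CPM in MF and was called without CM1. Cux2, Prlr and Cyp4a12a, in contrast, gave log2 fold changes of -6.66, -2.40 and 9.59 between MM and MF, beside -7.55, -2.53 and 11.06 between CM and CF. Medians of the gene groups were -0.39 for cholesterol synthesis, -0.32 for the interferon response and -0.27 for Wnt genes, each nearer to 0 than in CM and CF. Of their members 2 of 19, 7 of 39 and 0 of 20 were called between MM and MF, against 6.47% of all genes. Medians were nearer to 0 as well for Mup genes (1.80 beside 3.99, with 10 of 19 called), immediate early and heat shock genes (0.19 beside 0.51), MHC genes (-0.01 beside -0.36) and the markers of T and NK cells (-0.48 beside -0.94) and B cells (0.06 beside -0.90). Other medians were farther from 0 than in CM and CF, among them those of Sult genes (-1.77 beside -1.17), collagens (-0.36 beside -0.14), Gst genes (0.33 beside 0.19) and ribosomal proteins (0.49 beside 0.40). These differences between medians were not tested.

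**Figure D4:**
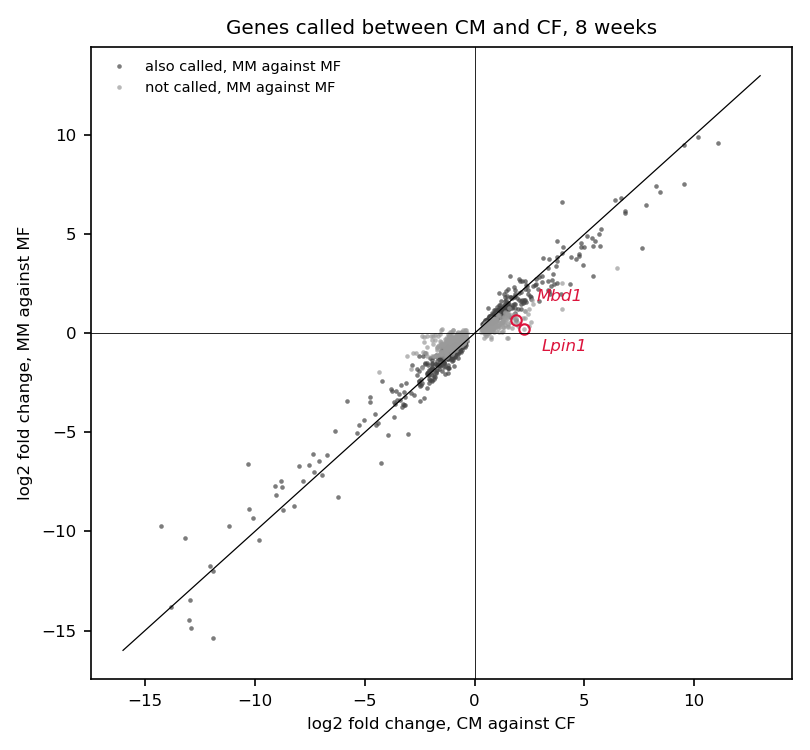
Fitted log2 fold change between CM and CF (horizontal) and between MM and MF (vertical) at 8 weeks for the 1402 genes called between CM and CF; dark points were also called between MM and MF, the line marks equality, and values of genes with almost no reads in one sex are imprecise. Of the genes, 1376 lie in the quadrants of equal sign, and Lpin1 and Mbd1 (circled) lie below the line of equality.

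Far fewer genes were called before puberty. At 3 weeks 2 of 14639 genes were called between CM and CF (0.0137%), with 1482 at an unadjusted p below 0.05, whereas edgeR's likelihood ratio test called 71 and DESeq2 called 127. Without 1 library the count was 0 (CF3), 1 (CM1 or CF4), 3 (CF5), 4 (CF6), 6 (CM4) and 16 (CM3). The 2 ages were sequenced from different library kits and fitted apart, so that age cannot be told apart from kit in a comparison of levels. Of the 1402 genes called at 8 weeks, 1371 were tested at 3 weeks and 1019 of them (74.3%) had the same sign. Of the 1371, 1 was called at 3 weeks, with the opposite sign. Of 184 tested genes at least 4-fold apart at 8 weeks, 24 were at least 4-fold apart at 3 weeks. Of these, 23 had the same sign, and Pnpla3 the opposite one. The sexes overlapped at 3 weeks in 18. Cyp4a12a read 0.621, 0.146, 40.9 and 2.79 CPM in CM and 0.0672, 0.125, 0.101 and 0.205 CPM in CF at 3 weeks (log2 fold change 6.45 ± 1.79 SE, FDR 0.245). Mup7 read 0.0478, 0.146, 8.3 and 0.861 CPM in CM and 0, 0.0751, 0.0406 and 0.0293 CPM in CF (log2 fold change 5.82 ± 1.64 SE, FDR 0.246). Slco1a1 read 14.7, 20.5, 264 and 113 CPM in CM and 1.11, 6.86, 5.8 and 3.04 CPM in CF (log2 fold change 4.59 ± 1.06 SE, FDR 0.183). The values of the CM libraries are in the order of replicates 1, 3, 4 and 5, and the third, replicate 4, was far above the others in all of these genes. Cyp2b9, nearly silent in CM at 8 weeks, read 446, 501, 79 and 367 CPM in CM and 764, 639, 558 and 650.4 CPM in CF (log2 fold change -0.91 ± 0.46 SE, FDR 0.527) at 3 weeks, and CM replicate 4 was the lowest. Cyp3a41a read 44.6, 2.93, 0 and 4.45 CPM in CM and 89.9, 70.4, 18.5 and 79.7 CPM in CF (log2 fold change -2.30 ± 1.16 SE, FDR 0.525), again lowest in CM replicate 4. Sult3a1 read 1.41, 1.64, 0.259 and 3.24 CPM in CM and 0.201, 1.08, 0.73 and 0.936 CPM in CF (log2 fold change 1.14 ± 0.72 SE, FDR 0.635), with overlapping groups.

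Bcl6 was 1 of the 2 genes called at 3 weeks, both higher in CM. It read 43.9, 49.9, 21.4 and 32 CPM in CM and 5, 5.29, 6.13 and 10.4 CPM in CF (log2 fold change 2.46 ± 0.39 SE, FDR 0.0205), whereas at 8 weeks the sexes overlapped. All 19 cholesterol synthesis genes had a positive log2 fold change at 3 weeks, where 1 was called, and a negative one at 8 weeks, where 12 were called, with medians of 0.57 and -0.59. Srebf1, higher in CF at 8 weeks, read 148, 147, 212 and 180.5 CPM in CM and 111, 113, 110.5 and 107 CPM in CF at 3 weeks (log2 fold change 0.64 ± 0.24 SE, FDR 0.385). Lss (log2 fold change 0.80 ± 0.21 SE, FDR 0.222), Mvd (log2 fold change 1.38 ± 0.28 SE, FDR 0.141) and Insig1 (log2 fold change 0.99 ± 0.19 SE, FDR 0.119) had positive values at 3 weeks too and did not pass the threshold, and the change of direction between the ages was not tested. The interferon-response list had a median of -0.89 at 3 weeks, where 1 female library stood out: Gbp3 read 14.5, 10.1, 9.23 and 9.65 CPM in CM and 13, 14.2, 187 and 16.9 CPM in CF (log2 fold change -2.42 ± 0.72 SE, FDR 0.267), the high value being CF replicate 5.

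**Figure D5:**
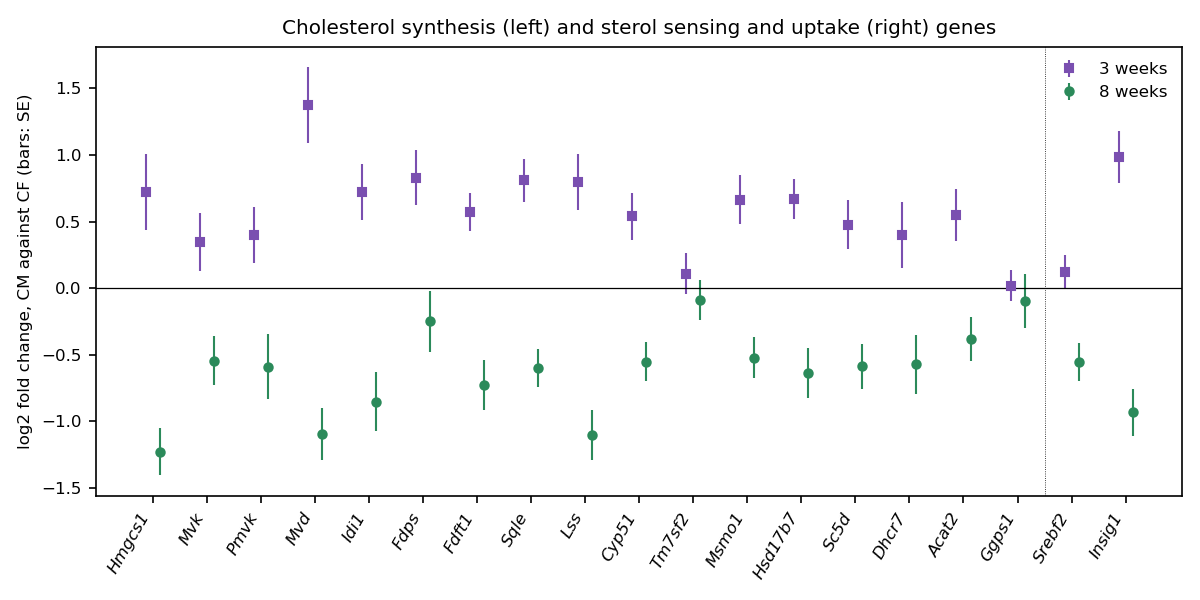
Log2 fold change between CM and CF at 3 weeks (squares) and 8 weeks (circles) for 17 cholesterol synthesis genes, and for Srebf2 and Insig1 of sterol sensing; bars are standard errors. All 19 genes plotted lie above 0 at 3 weeks and below 0 at 8 weeks, with Mvd at 1.38 and -1.10.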

How the data were processed

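Liver RNA was sequenced as stranded mRNA libraries. Per the labels and the study's methods, the authors aligned reads to mm10 with STAR, removed multi-mapped reads and counted reads per gene with featureCounts. Tool versions and the strand setting of the counting are not given in the sources used here. The deposited tables hold raw counts, which were used, and log2 CPM, fold changes, p-values and FDR of the authors' comparisons, which were not. Different kits were used at 3 and 8 weeks, so each age was fitted alone.

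Counts of the 16 libraries of an age, with group sizes of 4, were kept at 15 or more reads in at least 4 libraries, scaled by TMM and tested with the quasi-likelihood test of edgeR 4.0.16 in R 4.3.3, one mean per group, Benjamini-Hochberg adjustment over all genes including X and Y, threshold FDR 0.05. Genes on X and Y (426 tested) were then left out. Totals ranged from 26765492 to 33540873 reads in CM and CF. Depth limits genes of few reads: a group with no reads was bounded with 3 reads over the group, and ratios with 1 to 3 reads carry exact Poisson intervals at 95%, which cover counting error only. Summaries used Python 3.11.15 with pandas 2.3.3, and the test was tested on simulated data. Alternatives were the likelihood ratio test, DESeq2 1.42.0, RLE or total count scaling, no filter or 1 CPM, the replicate number as a block, fewer libraries in the fit, a robust prior and each library left out.

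Members and gene lists were chosen with earlier results of these data known. Genes named were the 10 largest differences per direction without overlap and at 1 CPM or more, up to 4 called and 2 uncalled members per list, genes the study names, and the 5 called genes per direction with most reads. Named outside this rule, after values were seen, were Acaa1b, Acot3, Bcl6, Cish, Cyp2b10, Cyp2d9, Fdft1, Fmo5, Foxa3, Ghr, Mup-ps10, Mup21, Nqo1, Nr1i3, Onecut1, Saa1, Socs2, Srebf1, Stat5a, Stat5b, Tff3, Tox and Zbtb16. A few genes are not reported here.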

Additional observations from a re-analysis of the deposited data

Results flagged for a closer look

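In 270 pairs of a named gene and a group of 4, 19 held a library whose gap to the others exceeded Dixon's 95% critical value, and chance alone flags about 1 pair in 20. High values were Acot3 in CF2 (277 CPM), Axin2 in CF1 (16.1), C9 in CM2 (802), Ces1c in CM2 (2988), Dusp1 in CF4 (15.7), Elovl3 in CF1 (7.25), Il33 in CM2 (1.93) and CF2 (3.8), Mup14 in CF1 (3.21), Mup7 in CF1 (8.69), Pnpla3 in CF3 (10.2), Scd1 in CF2 (9811), Serpina3k in CM2 (17400) and Zbtb16 in CF1 (12.8 CPM). Low values were Cyp2a4 in CF4 (1051 CPM), Cyp2e1 in CM4 (6765), Dusp1 in CM1 (13.6), Glul in CF2 (1178) and Tbx3 in CM3 (11.8 CPM).

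In 8 genes all CM libraries lay below all CF libraries at 8 weeks and above them at 3 weeks, a difference between ages that was not tested. The log2 fold changes at 8 and 3 weeks were -0.73 and 0.57 for Fdft1, -0.64 and 0.67 for Hsd17b7, -1.18 and 0.22 for Il33, -0.93 and 0.99 for Insig1, -1.1 and 0.8 for Lss, -1.1 and 1.38 for Mvd, -0.6 and 0.81 for Sqle, and -1.08 and 0.64 for Srebf1.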

How the results depend on the processing

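Between CM and CF the count of 1402 genes was 1746 with the likelihood ratio test, 1847 with DESeq2, 1373 with RLE and 1403 with total count scaling, 1406 without a filter, 1354 at 1 CPM, 1986 with 8 libraries in the fit and 911 to 1230 with each library left out, the lowest without CM2. The count between MM and MF was 1363 with DESeq2, 497 with 8 libraries in the fit and 561 to 1456 with each library left out. The test of the difference between maternal diets called 4 genes with the likelihood ratio test, 3 with DESeq2 and 0 to 2 with each library left out. At 3 weeks the count of 2 was 71 with the likelihood ratio test, 127 with DESeq2 and 0 to 16 with each library left out. Causes of these shifts were not tested.

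Of 156 genes named, 142 were called, 121 of these kept the call under every alternative in which they were tested and none turned sign; Obp2a was not tested without any 1 CM library or at 1 CPM in 4 libraries, nor Ms4a1, Gzmb and Hspa1a at the latter. Genes that were not called turned sign, on the log2 scale: with each library left out Bcl6 ranged from -0.38 to 0.45, with 0.02, 0.15, 0.17 and 0.45 without CM1, CM3, CF2 and CF4, and Socs2 from -0.81 to 0.07, the latter without CF1, while Cyp2e1 was at -0.0011 with total count scaling and -0.00501 without CF4. Same-numbered libraries correlated at -0.179, 0.141, -0.00987 and -0.0551 between CM and CF and at 0.257, 0.0282, 0.229 and 0.395 between MM and MF, not all above 0.1, so the numbers were not taken to pair the samples. With the replicate number as a block the counts were 1213 for CM and CF, 747 for MM and MF, 0 for the difference between diets and 10 at 3 weeks, and Bcl6 was at 0.13.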
